A study of Mus musculus with 6 samples.

Results

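The fetal liver and imprinted growth genes are 10 genes chosen by name: Afp, Gpc3, H19, Igf2, Grb10, Dlk1, Meg3, Peg3, Plagl1 and Mest. A gene was taken as measured where a probe set of the array carried its symbol and no other, which held for 9 of the 10, each with 1 probe set, out of 19938 genes and 35512 probe sets in all. H19, a maternally expressed noncoding RNA, had no such probe set and was not analysed here. The study sorted dissociated liver cells of weaned CyclinB1-GFP transgenic mice aged 3.5 weeks, which carry a green fluorescent reporter named after the mitotic cyclin B1. One group was GFP-positive cells, called replicating, and the other was GFP-negative cells, called quiescent. Both groups carry the reporter transgene, both come from livers of 3 individual mice, and each was measured on 3 Affymetrix arrays labelled as biological replicates. No strain background and no promoter of the transgene are given in the labels used here.

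Several of these genes are strongly expressed in fetal liver and silenced within weeks after birth. Afp encodes alpha-fetoprotein, the main serum protein of the fetus, and in mouse liver the transcription factors Zhx2 and Zbtb20 are known to repress it after birth. Most of the others are imprinted, that is, read from one parental allele, with paternal alleles of Igf2, Dlk1, Peg3, Plagl1 and Mest and the maternal allele of Meg3, and they act on fetal growth and are largely turned down in tissues after birth. The comparison asks whether dividing liver cells of the young mouse differ from resting ones in these genes, and which of the genes are still expressed at this age.

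Afp and its neighbour Alb, the albumin gene, have no other protein-coding or long noncoding gene between them on chromosome 5. The 250 bases before their starts are shown because the results set a gene at the edge of background beside a very abundant one, both with promoters bound by the liver factor HNF1. The sequences are from RefSeq (GRCm38.p6), plus strand, at chr5:90490464-90490713 for Afp and chr5:90460620-90460869 for Alb. Capitals mark GTTAAT, 1 arm of the HNF1 motif, searched on both strands.
Afp: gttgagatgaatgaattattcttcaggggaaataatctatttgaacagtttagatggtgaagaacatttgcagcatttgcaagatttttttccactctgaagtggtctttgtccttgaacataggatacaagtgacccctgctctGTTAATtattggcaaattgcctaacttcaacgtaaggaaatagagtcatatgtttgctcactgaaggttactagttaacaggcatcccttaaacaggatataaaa
Alb: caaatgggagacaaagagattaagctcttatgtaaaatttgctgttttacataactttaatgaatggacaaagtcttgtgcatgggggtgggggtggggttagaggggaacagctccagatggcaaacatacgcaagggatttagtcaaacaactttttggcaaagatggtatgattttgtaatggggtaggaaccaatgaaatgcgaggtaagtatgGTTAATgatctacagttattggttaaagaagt
Distances are counted from the start annotated in RefSeq, and whether transcription begins there was not tested. Each window held GTTAAT once, at 105 to 100 bases before the annotated start of Afp and 32 to 27 bases before that of Alb. Of 32851 windows of the same length, 6.43% held them at least once. Windows of Mest were among these, while those of Igf1 and the remaining measured genes of the list were not. Other forms of the HNF1 motif were not searched. The Afp window had 1 CpG dinucleotide and the Alb window 2, against a median of 6 over all windows, and the 16 windows of Igf1 and the other measured genes of the list had between 0 and 40.

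All values below are log2 of the deposited intensities, 1 per probe set and array, with differences taken as GFP-positive minus GFP-negative. The median over all probe sets of an array lay between 4.60 and 4.74. As a stand-in for background, 1210 probe sets of olfactory and vomeronasal receptor genes, which liver does not use, were taken. Their 95th percentile, taken per array, lay between 4.37 in GFP-negative 2 and 4.61 in GFP-positive 2. A gene was called expressed where it exceeded this percentile in all 6 arrays, which held for 54.5% of all genes and for 2.81% of the receptor probe sets themselves. All 13 measured hepatocyte markers passed, with mean levels of 11.3 to 11.5 in GFP-positive arrays and 11.5 to 11.7 in GFP-negative arrays, and 12 of 18 stellate cell and fibroblast, 14 of 19 endothelial, 4 of 15 Kupffer cell, 5 of 12 cholangiocyte, 6 of 10 erythroid, 1 of 12 lymphoid and 0 of 11 neutrophil markers did. The cells were sorted on a mitotic reporter. Of 14 cell division genes, 13 were called higher in GFP-positive cells (limma adjusted p below 0.05), as 1.55% of all genes were. Prc1, a cytokinesis gene, was higher by 4.71 ± 0.15 and Kif11, a spindle motor gene, by 4.56 ± 0.23. With the replicate number as a block, 12 of the 14 were called. The replication gene Mcm5, named after its values were seen, had a limma adjusted p of 0.070 with the block and 0.0445 without. Number 2 of both groups alone had high Xist (9.80 in GFP-positive cells and 9.03 in GFP-negative cells).

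Of the 9 measured genes, 4 were called expressed: Dlk1, Peg3, Afp and Meg3. Over all genes 54.5% were, the share to read this count and the counts of expressed genes in the lists below against. Dlk1 alone also stayed above the 99th percentile of the receptor probe sets in all 6 arrays, as 37.7% of all genes did. Igf2, Gpc3 and Grb10 straddled the 95th percentile, and Plagl1 and Mest lay below it in all 6 arrays. A probe set near background can belong to a gene with few transcripts or to probes that bind weakly, so a value there is not evidence that a gene is silent. In sorted bulk cells, fewer cells that express a gene and less RNA per cell cannot be told apart.

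None of the 9 genes passed the test between the groups (limma, Benjamini-Hochberg over 19938 genes), in which 1.67% of all genes were called, 1.55% as higher and 0.115% as lower. Peg3 was the 1 gene of the 9 with an unadjusted p below 0.05, which 8.8% of all genes had. The median difference of the 9 was -0.09 and that of all genes was -0.03, with 7 of the 9 below 0. The GFP-positive and GFP-negative values did not overlap in 2 of the 9, Peg3 and Igf2, as in 13.8% of all genes.

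**Figure D1:**
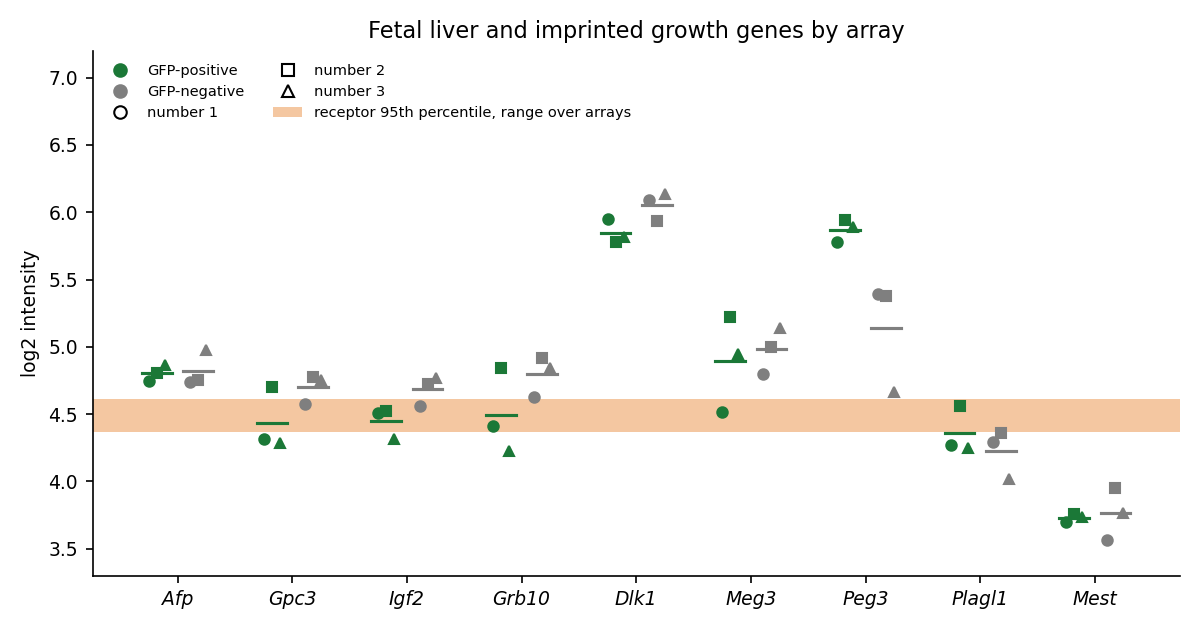
Log2 intensity of the 9 measured genes in each array, GFP-positive left of GFP-negative for each gene, with circles, squares and triangles for numbers 1, 2 and 3 and a bar at each group mean. The shaded band spans the 95th percentile of receptor probe sets over the arrays, 4.37 to 4.61, and Dlk1 and Peg3 lie furthest above it, apart from Peg3 in GFP-negative 3.

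Afp (probe set 10523078) had 4.75, 4.80 and 4.86 in GFP-positive cells, against 4.74, 4.76 and 4.97 in GFP-negative cells. All 6 values lay above both the array's median and the receptor 95th percentile, but by only 0.19 to 0.45 over the latter, and none reached the 99th percentile. The groups overlapped almost fully, with a difference of -0.02 ± 0.14 (SE) and a 95% interval of -0.32 to 0.29 (limma adjusted p = 0.99). Albumin, in contrast, read 13.25 ± 0.06 in GFP-positive cells and 13.31 ± 0.05 in GFP-negative cells (SD, n = 3 each), 8.71 to 8.92 above the same percentile.

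Both known postnatal repressors of Afp were expressed in every array of both fractions. Zhx2 had 6.26, 5.73 and 6.45 in GFP-positive cells, against 6.07, 6.17 and 6.01 in GFP-negative cells (difference 0.06 ± 0.19, limma adjusted p = 0.97). Zbtb20 averaged 9.63 ± 0.22 in GFP-positive cells and 9.44 ± 0.37 in GFP-negative cells (SD, n = 3 each), a difference of 0.19 ± 0.20 (limma adjusted p = 0.89). Over the list of liver regulators linked to Afp, which holds these repressors and activators such as Hnf4a and the Foxa genes, all 19 measured members were expressed, none was called, and the median difference was 0.03. The largest was that of Foxa3, a forkhead activator of liver genes, at -0.39 ± 0.19 (limma adjusted p = 0.62).

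Gpc3 (probe set 10604576), an X-linked gene for a cell surface proteoglycan that is abundant in fetal liver and in liver tumours, had 4.32, 4.70 and 4.29 in GFP-positive cells, against 4.57, 4.77 and 4.75 in GFP-negative cells. It exceeded the receptor percentile in 1 of 3 GFP-positive and 3 of 3 GFP-negative arrays. Its highest value in each group was that of number 2, as was also so for Grb10, Plagl1 and Mest. The difference was -0.26 ± 0.16, with an interval of -0.62 to 0.09 (limma adjusted p = 0.74). Its neighbour Gpc4, another glypican gene, named after its values were seen, lay well above background at 7.54 ± 0.16 in GFP-positive cells and 7.68 ± 0.07 in GFP-negative cells (SD, n = 3 each). Of the 19 measured genes of the albumin and glypican families and of Dlk and Notch signalling, 12 were expressed and none was called, with a median difference of -0.12. The receptor gene Notch1 differed most among them (-0.45 ± 0.14, limma adjusted p = 0.25).

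Igf2 (probe set 10569344), the fetal insulin-like growth factor, had 4.51, 4.53 and 4.31 in GFP-positive cells, against 4.56, 4.72 and 4.77 in GFP-negative cells. All 3 GFP-positive values lay below all 3 GFP-negative ones, but the nearest of them were 4.53 and 4.56. The gene exceeded the receptor percentile in 1 of 3 GFP-positive and 3 of 3 GFP-negative arrays. That count depends on each array's own percentile: 4.53 in GFP-positive 2 lay below 4.61, while the lower 4.51 in GFP-positive 1 lay above 4.38. The difference was -0.24 ± 0.14, with an interval of -0.55 to 0.08 (limma adjusted p = 0.73). Igf1, the growth factor that the liver secretes after birth under growth hormone, stood at 11.00, 11.06 and 11.05 in GFP-positive cells, against 11.16, 11.25 and 11.24 in GFP-negative cells, 6.45 to 6.88 above the receptor percentile. Its groups did not overlap either, and its difference of -0.18 ± 0.13 did not pass (limma adjusted p = 0.81).

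Grb10 (probe set 10384398) encodes an adaptor that dampens insulin and IGF receptor signalling. It had 4.41, 4.85 and 4.22 in GFP-positive cells, against 4.63, 4.92 and 4.85 in GFP-negative cells, above the receptor percentile in 2 of 3 and 3 of 3 arrays. The groups overlapped, and the difference of -0.30 ± 0.18 had the interval reaching lowest among the 9 genes, -0.71 to 0.11 (limma adjusted p = 0.75). Across the IGF system, from hormone receptors to binding proteins, 20 of 27 measured genes were expressed and none was called, with a median difference of -0.08. Socs2, a growth hormone-induced feedback inhibitor, differed most, and its arrays spread widely (6.23 ± 0.85 in GFP-positive cells and 7.09 ± 0.81 in GFP-negative cells, SD, n = 3 each, limma adjusted p = 0.67). Within numbers 1, 2 and 3 the difference of Socs2 was -0.55, -0.71 and -1.31. With the replicate number as a block its limma adjusted p was 0.069, which did not pass either. Igf2r, the imprinted receptor that clears Igf2 protein, was expressed at 6.75 ± 0.17 in GFP-positive cells and 6.92 ± 0.11 in GFP-negative cells (SD, n = 3 each), and is named after its values were seen.

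Dlk1 (probe set 10398319), a transmembrane protein related to Notch ligands that marks fetal hepatoblasts, was the gene of the 9 most clearly expressed at this age. It had 5.95, 5.78 and 5.82 in GFP-positive cells, against 6.09, 5.94 and 6.14 in GFP-negative cells, 1.17 to 1.67 above the receptor percentile in every array. The groups overlapped by a narrow margin, since GFP-positive 1 lay just above GFP-negative 2. The difference was -0.21 ± 0.14, with an interval of -0.51 to 0.10 (limma adjusted p = 0.78). Within numbers 1, 2 and 3 it was -0.14, -0.16 and -0.32. Stellate cell and fibroblast markers had mean levels of 4.80 to 4.96 in GFP-positive arrays and 5.08 to 5.20 in GFP-negative arrays, with 15 of 18 differences below 0 and none called. Differences also lay below 0 in 17 of 19 endothelial markers, 11 of 13 hepatocyte markers and 11110 of all 19938 genes, with medians of -0.19 for stellate, -0.17 for endothelial and -0.14 for hepatocyte markers, and the part of any of these in the values of Dlk1 was not tested. The matrix gene Dcn, itself imprinted in mouse placenta, differed most among them and among the other imprinted genes (-0.86 ± 0.26, limma adjusted p = 0.24).

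Meg3 (probe set 10398326), the maternally expressed noncoding RNA of the Dlk1 domain on chromosome 12, had 4.52, 5.22 and 4.95 in GFP-positive cells, against 4.80, 5.0 and 5.14 in GFP-negative cells. The 6 values lay just 0.13 to 0.64 above the receptor 95th percentile, and 1 of them was above the 99th percentile. The GFP-positive values spread most widely of the 9 genes in that fraction (SD 0.36, n = 3) and enclosed all 3 GFP-negative ones. The difference was -0.09 ± 0.19, with an interval of -0.52 to 0.35 (limma adjusted p = 0.96). The 4 other listed genes of the domain were grouped by domain after their values were seen. Of these, Rtl1 was called expressed at 4.94 ± 0.12 in GFP-positive cells and 5.0 ± 0.28 in GFP-negative cells (SD, n = 3 each). It was near background, just 0.27 to 0.72 above the receptor 95th percentile, and above the 99th percentile in 1 of 6 arrays. Begain, Rian and Dio3 lay below the receptor 95th percentile in all 6 arrays.

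Peg3 (probe set 10559796), a paternally expressed zinc finger gene linked to growth and cell survival, had the largest difference of the 9. It had 5.78, 5.94 and 5.89 in GFP-positive cells, against 5.39, 5.38 and 4.66 in GFP-negative cells. Every GFP-positive value was above every GFP-negative value, and GFP-negative 3 stood apart from the other 2, just 0.13 above the receptor percentile. The difference was 0.73 ± 0.20, or 1.65-fold, with an interval of 0.27 to 1.18 before any adjustment for the number of genes (limma across all genes, unadjusted p = 0.0055 and adjusted p = 0.18). Within numbers 1, 2 and 3 it was 0.39, 0.56 and 1.23. Without GFP-negative 3 the difference was 0.49 (limma adjusted p = 0.24).

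**Figure D2:**
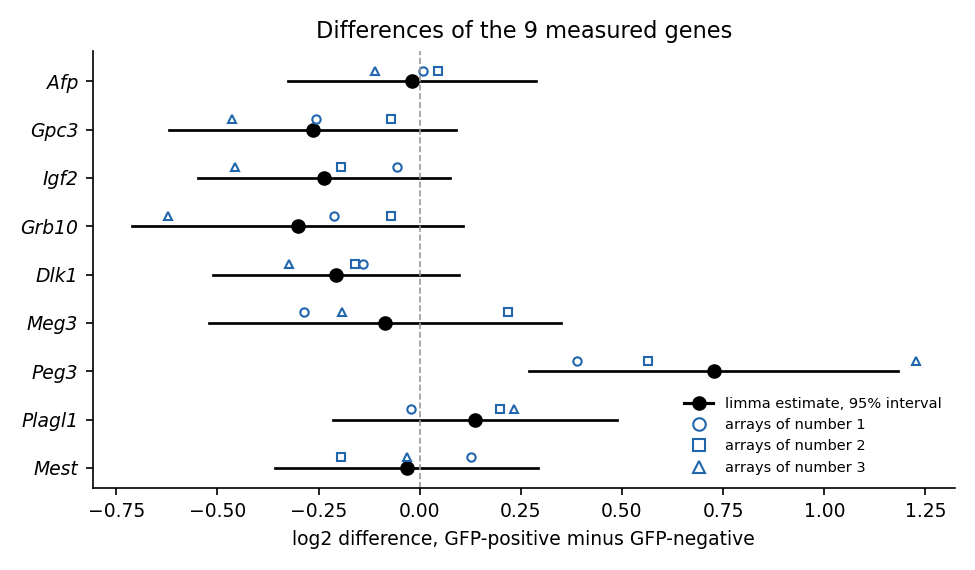
Log2 difference, GFP-positive minus GFP-negative, of the 9 measured genes, with a black point and line for the limma estimate and its unadjusted 95% interval and open blue symbols for the difference between arrays of the same number. The interval of Peg3, 0.27 to 1.18, is the one that does not reach 0, and the other 8 include 0.

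Over the 6 arrays Peg3 spanned 1.28, and it was the 1 expressed gene of the 9 that spanned at least 1. Out of 10875 other expressed genes, the values most like its own, each gene taken relative to its mean, were those of Rnaseh2b, which encodes a subunit of an enzyme that removes ribonucleotides from DNA (root mean square difference 0.02), and Rpa3, a subunit of the single-stranded DNA binding complex used in replication (0.09). Rnaseh2b differed by 0.72 ± 0.21 (limma adjusted p = 0.20) and Rpa3 by 0.62 ± 0.18 (limma adjusted p = 0.19), so neither passed. Both were picked for values like those of Peg3, so these differences follow from the choice and are no separate result. With so many genes searched over 6 arrays, likeness of this kind is a description. The 2 other listed genes of the Peg3 domain on chromosome 7, Usp29 and Zim1, lay below the receptor percentile in all 6 arrays, at 2.96 ± 0.13 and 3.77 ± 0.13 in GFP-positive cells and 3.03 ± 0.17 and 3.77 ± 0.15 in GFP-negative cells (SD, n = 3 each).

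**Figure D3:**
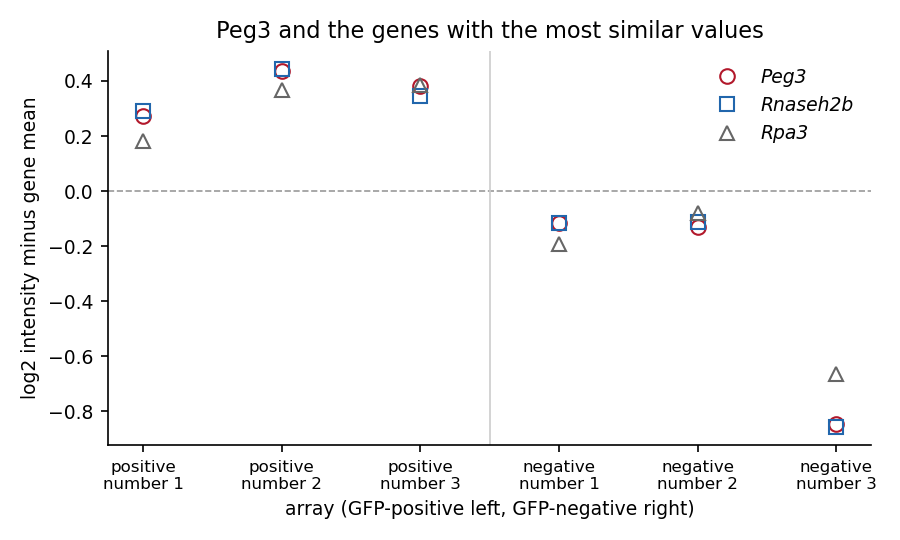
Log2 intensity minus the gene's mean over the 6 arrays for Peg3, Rnaseh2b and Rpa3, with the GFP-positive arrays left of the GFP-negative ones. All 3 genes are higher in each GFP-positive array than in any GFP-negative one and are lowest in GFP-negative 3. For Rnaseh2b and Rpa3 this follows from their choice as the genes most like Peg3.

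Plagl1 and Mest were the genes of the 9 that lay below the receptor percentile throughout. Plagl1 (probe set 10361771), a zinc finger regulator of the imprinted gene network, had 4.27, 4.56 and 4.25 in GFP-positive cells, against 4.29, 4.36 and 4.02 in GFP-negative cells (difference 0.14 ± 0.16, interval -0.21 to 0.49, limma adjusted p = 0.90). Mest (probe set 10537062), a paternally expressed gene of the hydrolase fold family, had 3.70, 3.76 and 3.73 in GFP-positive cells, against 3.57, 3.95 and 3.77 in GFP-negative cells (difference -0.03 ± 0.15, interval -0.36 to 0.29, limma adjusted p = 0.98). At such levels a difference in transcript number may not be visible on the array, and no fold is given. Of the 3 other listed genes of the Mest domain, the neighbouring Copg2, a vesicle coat gene, was expressed (7.36 ± 0.19 in GFP-positive cells and 7.62 ± 0.08 in GFP-negative cells, SD, n = 3 each), as was Klf14, while Cpa4 lay below in all 6 arrays.

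In 7 of the 9 genes, Peg3 among them, the highest GFP-positive value was that of number 2. The share of all genes for which this holds was not counted, so it is not read as a trait of these genes. The receptor probe sets read high in GFP-positive 2 too, with a median of 2.94 there against 2.68 and 2.78 in GFP-positive 1 and 3 and 2.74 to 2.82 in the GFP-negative arrays. Gpc3, Grb10, Plagl1 and Mest were also highest in number 2 among the GFP-negative arrays, where the receptor median was 2.74. Number 2 was the one with high Xist in both groups. The part of the receptor offset, or of the source of number 2, in the spread of Gpc3, Grb10, Meg3 and Plagl1 was not tested.

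The wider imprinted and fetal gene lists gave no call either, where 1.67% of all genes were called. Of 52 other measured imprinted genes and imprint regulators, 27 were expressed, and the median difference was -0.07. Dnmt1, the maintenance DNA methyltransferase, and Ctcf, the factor that insulates the Igf2 and H19 genes, had the highest differences in that list and are named after their values were seen. Dnmt1 averaged 7.23 ± 0.25 in GFP-positive cells and 6.43 ± 0.26 in GFP-negative cells (SD, n = 3 each), a difference of 0.80 ± 0.18 (limma adjusted p = 0.083). Ctcf averaged 7.64 ± 0.52 in GFP-positive cells and 6.79 ± 0.41 in GFP-negative cells (SD, n = 3 each), a difference of 0.85 ± 0.28 (limma adjusted p = 0.32).

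Of 28 other fetal liver and progenitor genes, 17 were expressed and the median difference was -0.07. The progenitor marker Cd24a differed most (-0.70 ± 0.20, limma adjusted p = 0.19) at levels below the receptor percentile in all 6 arrays. Of the genes for RNA-binding proteins of the fetal growth programme, named after their values were seen, Igf2bp3 was expressed at 6.66 ± 0.25 in GFP-positive cells and 6.73 ± 0.43 in GFP-negative cells and Lin28a at 4.87 ± 0.19 in GFP-positive cells and 5.0 ± 0.19 in GFP-negative cells (SD, n = 3 each), while Igf2bp1 and Lin28b lay below the percentile in all 6 arrays. Lin28a was near background, just 0.15 to 0.70 above the receptor 95th percentile, and reached the 99th percentile in no array.

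**Figure D4:**
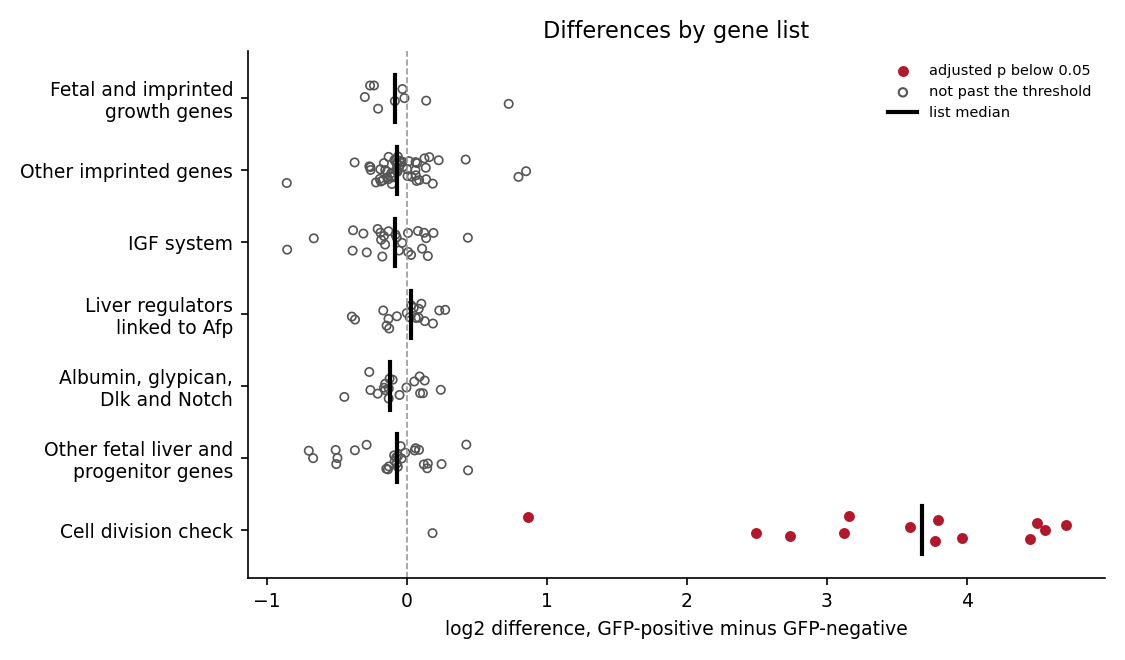
Log2 difference, GFP-positive minus GFP-negative, of every measured gene of the 9 and of the other lists, with a bar at each list's median and filled red points for genes past an adjusted p of 0.05. The growth and fetal gene lists have medians between -0.12 and 0.03 and no called gene, while 13 of 14 cell division genes are called (12 with the replicate block).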

How the data were processed

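Total RNA of the sorted cells (10 ng each) underwent whole-transcript amplification and was hybridised to Affymetrix arrays, per the labels' protocols. The deposited values are intensities on a linear scale, made by the authors with RMA, per the submitters' processing notes; the sources used here give neither its version nor its settings. They ran from 1.62 to 15836, with array medians of 24.3 to 26.7, and log2 was taken with no further normalization and no filter. The number of arrays, 3 per group, limits the precision.

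Of 35512 probe sets, 21789 have 1 gene symbol in the platform annotation, 1621 several and 12102 none, and those with 1 were named. Symbols were updated through Entrez identifiers for 21698 of them with a GRCm38 gene table. For each of 19938 genes the probe set brightest on average was used. The groups were compared with limma 3.58.1 under R 4.3.3 (functions lmFit and eBayes, 4 residual and 5.44 prior degrees of freedom, two-sided, Benjamini-Hochberg over all genes, threshold 0.05). Intervals are 95% and unadjusted. The fit code was also run on simulated differences, with means taken from these data and spreads taken from them but shuffled across genes. No replicate effect was simulated, and no result here rests on that run.

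The genes, lists and rules were chosen with earlier results of these data known. Named were all measured genes of the list, Alb, Igf1, Zhx2, Zbtb20, in each list the 2 called genes, or else the 1 gene, with the largest absolute difference, and the 2 genes most like each expressed gene that spanned at least 1. Of markers of other cells, this rule gave Clec4f (Kupffer cell, -0.68 ± 0.13, limma adjusted p = 0.032, or 0.077 with the replicate block), Cdh5 (endothelial, -0.71 ± 0.27, 0.44), Cd24a (cholangiocyte), Car1 (erythroid, -0.65 ± 0.27, 0.51), Ms4a1 (lymphoid, 0.21 ± 0.17, 0.85), S100a8 (neutrophil, -0.97 ± 0.32, 0.33), Pck1 (hepatocyte, -0.52 ± 0.23, 0.56) and Uty (sex-linked, -0.26 ± 0.92, 0.97).

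Both fractions came from the same 3 livers, per the design text, but whether a number stands for a mouse is not stated. Number 2 of both groups shared high Xist and low Eif2s3y (2.24 in GFP-positive cells and 1.98 in GFP-negative cells), and deviations from the group means correlated across genes by 0.20, 0.06 and -0.05 for numbers 1, 2 and 3. The number was therefore used as a block in an alternative fit only. Python 3.11.15, pandas 2.3.3 and matplotlib 3.10.9 made the tables and plots.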

Additional observations from a re-analysis of the deposited data

How the results depend on the processing

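None of the 9 genes passed under any of the 16 other settings of the fit, nor at an adjusted p below 0.1. With the replicate number as a block the adjusted p of Peg3 was 0.16 and its difference 0.73, those of the other 8 genes lay between 0.73 and 0.99, and none of the 9 changed its call. Over all genes 355 were called with the block, and of the genes in the lists Mcm5 and Clec4f lost their calls. Peg3 ranged from 0.49 to 0.85 over all settings (adjusted p between 0.12 and 0.42, limma). When single arrays were left out, the differences ran from 0.49 to 0.85 for Peg3, -0.30 to -0.17 for Igf2, -0.27 to -0.16 for Dlk1, -0.40 to -0.19 for Gpc3, -0.48 to -0.17 for Grb10, 0.03 to 0.20 for Plagl1, -0.060 to 0.056 for Afp, -0.13 to 0.063 for Mest and -0.25 to 0.10 for Meg3. Signs turned in genes with differences near 0, and the cause was not tested. Afp was 0.005 with array weights, 0.01 without GFP-positive 1 and 0.056 without GFP-negative 3. Mest was 0.0093 with array weights, 0.033 with values raised to the receptor percentile, 0.048 without both arrays of number 2 and 0.063 without GFP-negative 2. Meg3 was 0.10 without GFP-positive 1. Mest was not tested where the third of genes with the lowest means was left out.

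The count of expressed genes, 4 of 9, depended on the threshold by construction. It was 1 with the receptor 99th percentile (Dlk1), 2 with the array median (Afp and Dlk1) and 7 where 3 arrays sufficed (with Igf2, Gpc3 and Grb10 added), and 4 to 5 when single arrays were left out. Over all genes 333 were called, and 253 to 458 under the other settings.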
